A study of Mus musculus with 3 samples.

Results

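The genes described here are 10 neural cell adhesion and adhesion-related genes of the mouse, Ncam1, Ncam2, Nell1, Nell2, Lrrc4c, Alcam, Olfm3, L1cam, Cntn1 and Nrcam, out of 19938 genes measured. They were chosen by symbol, and partly by their values, since Ncam2, Nell2, Lrrc4c, Alcam and Olfm3 were listed for standing among the largest increases over the array labelled control. Their values against that array are therefore a description. Each of the 10 genes had exactly 1 probe set, and all 10 were measured on all 3 arrays.

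RNA came from tumor cells of mouse soft tissue sarcomas that carry an inducible EWS/ATF1 gene, the fusion of the RNA-binding protein EWSR1 with the transcription factor ATF1 that marks human clear cell sarcoma. The series holds 3 Affymetrix arrays, 1 per group. Per the labels, the tumor array holds RNA taken straight from a tumor of an inducible mouse that received doxycycline for 3 months, the high doxycycline array holds RNA of cultured tumor cells kept 24 h in 0.2 microg/ml doxycycline, and the control array holds RNA of cultured tumor cells at 24 h with 0 microg/ml. All 3 share the inducible transgene and a mixed C57/BL6, 129 and ICR background. The descriptions of the high doxycycline and control arrays carry the same number, 1297, and that of the tumor array carries 1281; what these numbers stand for, the promoter that drives the transgene, the age of the mice and whether the cultures are single clones are not given in the sources used here.

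With 1 array per group nothing could be tested, no difference has a replicate check, and the precision is limited by there being 3 arrays. Values are intensities as deposited, and a difference is taken between log2(intensity + 1) values, so that a fold given here understates the change of a dim gene. A gene is called brighter or dimmer where it differs by at least 2-fold. The only measure of error within the data was how far probe sets of the same gene disagreed, over 999 genes with several. The median disagreement on the log2 scale was 0.34 for tumor against control, 0.31 for high doxycycline against control and 0.068 between tumor and high doxycycline, and the 90th percentile was 1.44, 1.37 and 0.33 for the same comparisons. It covers error of the probes, not variation between mice or cultures. Some probe sets had exactly the same deposited value on both arrays of a pair, which may come from the processing. Their share was 34.6% between tumor and high doxycycline, 21.6% for high doxycycline against control and 16.9% for tumor against control. Such ties can lower the disagreement, so the 0.068 is not read as a higher precision of that pair.

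The array labelled control went against its label, and every direction below is one between arrays named by their labels. It was bright for many genes of macrophages, vessels, muscle and matrix. The array labelled tumor, the one whose label names tissue, was dimmer for most of them. Of 12 macrophage markers, 1, 1 and 12 lay above the array median on the arrays labelled tumor, high doxycycline and control, and their summed intensity was 1354, 1697 and 29241. For 10 fibroblast and matrix markers the sums were 2861, 2189 and 56328, for 10 endothelial markers 1962, 2871 and 13157, and for 11 skeletal muscle markers 1664, 1867 and 26761, in the same order of arrays. Of the matrix markers, 8, 6 and 10 lay above the array median. Of the endothelial markers 2, 2 and 9 did, and of the muscle markers 2, 3 and 8. Whether the RNA of the arrays labelled tumor and control was exchanged cannot be settled from the table. Read with those 2 labels exchanged, the log2 difference of Ncam2 between tumor and control would be -5.71, the other genes called below would turn in the same way, and the comparison of the arrays labelled tumor and high doxycycline would be one of untreated and treated cultures, in which Lrrc4c (-2.0), Ncam2 (-1.67), Alcam (-1.598) and Olfm3 (-1.49) would be dimmer with doxycycline. No marker was at 0, and the arrays' median intensities over 28856 probe sets were 219.8, 227 and 250.02. Fos, the gene named in the title of the series, had 302, 1234 and 1114, Atf1 had 933, 1063 and 1189, and Ewsr1 had 1624, 1649.6 and 1659.6; the sources used here do not say whether mouse probe sets read the transgene. In bulk RNA, fewer cells of a type and less RNA per cell cannot be told apart, and the part of the tissue genes in the values of the adhesion genes was not tested.

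Neural adhesion molecules hold axons, dendrites and glia to each other and to matrix. Ncam1, Ncam2, Alcam, L1cam, Nrcam and Cntn1 belong to the immunoglobulin superfamily: most cross the membrane and bind their own kind or a relative on the next cell, and Cntn1 is held by a lipid anchor. Lrrc4c is a leucine-rich repeat receptor of synapses, and Nell1, Nell2 and Olfm3 are secreted glycoproteins.

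Ncam2, a relative of Ncam1 best known from olfactory axons, had an intensity of 2899 on the array labelled tumor, 909.7 on high doxycycline and 54.3 on control. It was 52.5-fold brighter on tumor than on control, the top rank of all 19938 genes, and 16.5-fold brighter on high doxycycline than on control. On control its value lay below the 25th percentile of that array (99.6).

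Nell2, a secreted protein with EGF-like repeats that is made by neurons and binds the guidance receptor Robo3, had 6292, 4478 and 226 on the arrays labelled tumor, high doxycycline and control. The arrays labelled tumor and high doxycycline lay close together for Nell2, 27.8-fold and 19.8-fold above control. Lrrc4c, also called netrin-G ligand 1, which binds netrin-G1 on axons, had 2409.6 on tumor, 601 on high doxycycline and 81.7 on control, which is 29.2-fold brighter on tumor and 7.28-fold brighter on high doxycycline than on control.

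Alcam, the CD166 receptor that binds itself and CD6 of T cells, had 6609 on the array labelled tumor, 2183 on high doxycycline and 277 on control. Olfm3, or optimedin, an olfactomedin-domain protein of brain and retina, had 2282, 809 and 103 on the same arrays. The profiles of both genes had nearly the same shape: Alcam was 23.8-fold and 7.85-fold, and Olfm3 21.8-fold and 7.75-fold, brighter on tumor and on high doxycycline than on control. Centred on their own means, the 3 log2 values of Alcam and Olfm3 lay 0.092 apart (Euclidean distance over 3 arrays), the smallest distance among the 10 genes. Lrrc4c followed at 0.30 from Alcam and 0.38 from Olfm3.

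Cntn1, the contactin of paranodal junctions, where myelin loops attach to the axon, had 883, 607 and 93.5 on the arrays labelled tumor, high doxycycline and control, and was 9.36-fold and 6.44-fold brighter than on control. L1cam, which guides axon growth and anchors to ankyrins, had 799, 516 and 304. It was 2.63-fold brighter on tumor than on control, and its 1.695-fold difference between high doxycycline and control did not reach the 2-fold limit. The log2 difference of L1cam between tumor and control, 1.39, lay inside the 90th percentile of probe set disagreement of 1.44.

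The remaining 3 genes, Ncam1, Nrcam and Nell1, did not share the pattern. Ncam1, the founding member of its family, had 122, 118 and 206 on the arrays labelled tumor, high doxycycline and control, with log2 differences of -0.75 and -0.80 against control. Nrcam, which gathers sodium channels at nodes of Ranvier, had 87.1, 99.5 and 121. Nell1, a relative of Nell2 known for its part in bone formation, had 86.1, 91.5 and 91.5, with an identical value on the high doxycycline and control arrays. All 3 of these genes lay below the array median on all 3 arrays, so a small difference between dim values may not have been detectable.

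**Figure D1:**
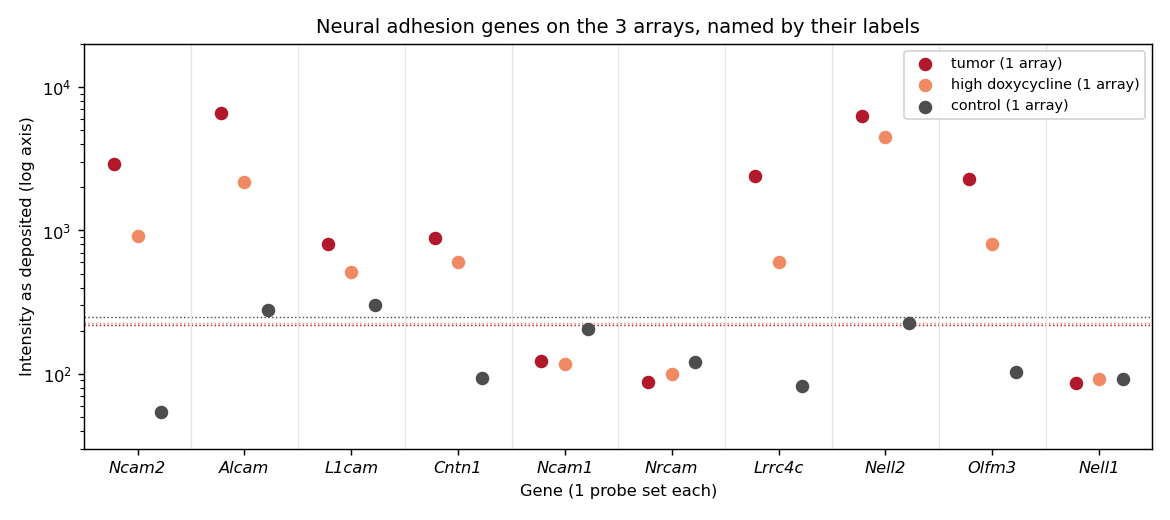
Intensity as deposited (log axis) of the 10 genes, 1 point per array, with the arrays labelled tumor, high doxycycline and control from left to right within each gene and dotted lines at the array medians. Ncam2, Alcam, L1cam, Cntn1, Lrrc4c, Nell2 and Olfm3 are ordered tumor, high doxycycline, control from bright to dim, while Ncam1, Nrcam and Nell1 stay below all 3 medians.

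In all, 7 of the 10 genes were called brighter on tumor than on control, where 11.3% of all genes were, and none was called dimmer, where 6.82% of all genes were. On high doxycycline against control 6 of the 10 were brighter, beside 10.6% of all genes, and none was dimmer, beside 5.56%. These counts were in part fixed by the choice of the genes, and nothing is read from them. Both comparisons share the array labelled control. Under a shift of the arrays to a common median the share of brighter among all called genes for tumor against control was 72.8%, and 62.3% without that shift, but the 7 and 6 genes were called under both. Of the 10 genes, 7, 7 and 2 lay above the array median on the arrays labelled tumor, high doxycycline and control; the 2 on control were Alcam and L1cam.

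Between the array labelled tumor and the array labelled high doxycycline, which differed least, Lrrc4c was 4.0-fold brighter on tumor, Ncam2 3.18-fold, Alcam 3.03-fold and Olfm3 2.82-fold. These 4 of 10 genes were called brighter where 0.913% of all genes were, and none was called dimmer where 1.15% of all genes were. This comparison shares the tumor array with the one that chose the genes, so the count is given as a description. Their log2 differences, 2.0, 1.67, 1.598 and 1.49, ranked 16, 34, 43 and 55 among all genes. L1cam (0.63), Cntn1 (0.54) and Nell2 (0.49) differed in the same direction without reaching 2-fold, and Ncam1 (0.06), Nell1 (-0.09) and Nrcam (-0.19) differed least. The macrophage, endothelial and muscle lists had median log2 differences of -0.22, -0.16 and -0.19 between these arrays, and the endothelial Egfl7 was called dimmer on tumor. The matrix list had a median of 0.43, in the direction of the adhesion genes, with Dcn (0.88), Postn (0.73) and Sparc (0.71) highest and no gene past 2-fold; its part in the values of the adhesion genes was not tested.

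**Figure D2:**
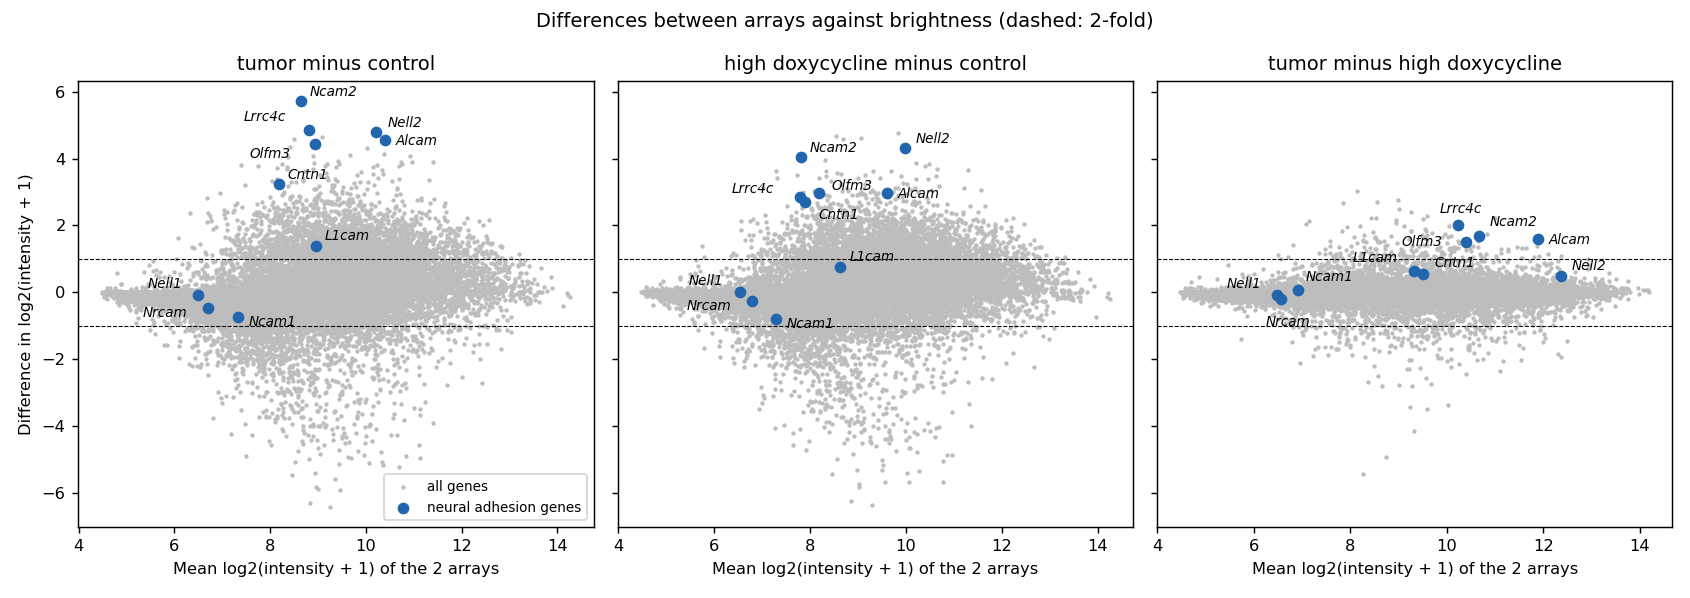
Difference in log2(intensity + 1) of each gene (grey) against its mean over the pair of arrays, for tumor minus control, high doxycycline minus control and tumor minus high doxycycline, with the 10 genes in blue and dashed lines at 2-fold. Ncam2 stands at the top of the left panel (5.71), and Lrrc4c, Ncam2, Alcam and Olfm3 lie above the line in the right panel.

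Ncam2, Lrrc4c, Alcam and Olfm3 were called brighter in all 3 comparisons, as were 44 of all genes (0.221%). A gene brighter on high doxycycline than on control and on tumor than on high doxycycline is always called for tumor against control, so that call adds nothing. Ncam2, Lrrc4c, Alcam and Olfm3 were also listed for their increase over control, so this is a description. Of all genes, 13.1% lay in the order tumor, high doxycycline, control from bright to dim, among them also Nell2, L1cam and Cntn1. The promoters of Ncam2, Lrrc4c, Alcam and Olfm3 are shown because these genes were called at each step of that order. Each runs 5′ to 3′ over 300 bases, from 250 before to 50 after a transcript start, from RefSeq, build GRCm38.p6; Olfm3 has 2 starts in that table. Capitals mark matches on either strand to TGACGTCA, the cAMP response element that ATF1 and its relatives bind, to its shortened form TGACG, or to TGANTCA, the element of AP-1 factors such as Fos; TGACG also lies inside the full element.
Ncam2 (chr16:81200447-81200746, plus strand): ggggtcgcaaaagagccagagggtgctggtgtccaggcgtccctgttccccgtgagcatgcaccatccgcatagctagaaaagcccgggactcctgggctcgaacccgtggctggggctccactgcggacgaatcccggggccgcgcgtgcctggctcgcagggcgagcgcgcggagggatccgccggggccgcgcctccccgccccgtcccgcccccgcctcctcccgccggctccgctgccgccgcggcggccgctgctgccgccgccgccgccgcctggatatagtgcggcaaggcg
Lrrc4c (chr2:96317919-96318218, plus strand): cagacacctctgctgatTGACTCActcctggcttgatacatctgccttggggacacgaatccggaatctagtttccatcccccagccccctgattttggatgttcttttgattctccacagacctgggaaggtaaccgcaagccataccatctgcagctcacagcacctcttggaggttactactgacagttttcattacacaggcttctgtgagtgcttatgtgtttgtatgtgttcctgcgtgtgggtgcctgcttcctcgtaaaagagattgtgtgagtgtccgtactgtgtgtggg
Alcam (chr16:52453032-52453331, minus strand): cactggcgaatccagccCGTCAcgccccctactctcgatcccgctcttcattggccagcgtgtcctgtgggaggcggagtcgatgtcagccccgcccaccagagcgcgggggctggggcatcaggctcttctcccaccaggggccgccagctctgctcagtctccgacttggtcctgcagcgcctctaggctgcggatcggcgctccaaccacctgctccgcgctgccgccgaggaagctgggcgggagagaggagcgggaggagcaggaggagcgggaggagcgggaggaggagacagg
Olfm3, start 1 (chr3:114903828-114904127, plus strand): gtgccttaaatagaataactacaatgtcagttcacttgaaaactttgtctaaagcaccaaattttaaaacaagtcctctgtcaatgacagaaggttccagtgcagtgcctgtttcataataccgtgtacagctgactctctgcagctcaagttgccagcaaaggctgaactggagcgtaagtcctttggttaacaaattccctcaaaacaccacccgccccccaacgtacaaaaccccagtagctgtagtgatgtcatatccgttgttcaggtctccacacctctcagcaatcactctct
Olfm3, start 2 (chr3:115080715-115081014, plus strand): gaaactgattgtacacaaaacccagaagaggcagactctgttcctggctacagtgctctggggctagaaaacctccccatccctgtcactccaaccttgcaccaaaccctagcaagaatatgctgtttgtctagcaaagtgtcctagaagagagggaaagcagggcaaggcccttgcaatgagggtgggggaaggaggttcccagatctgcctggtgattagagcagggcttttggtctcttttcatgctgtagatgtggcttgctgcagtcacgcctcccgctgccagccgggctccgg

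Lrrc4c held 1 AP-1 match, TGACTCA, whose first base lies at position -233 from the start, and Alcam held 1 match to the shortened element at the same position. The windows of Ncam2 and Olfm3 held no match. The promoter table held 8 of the 10 genes with 12 starts, and Ncam1 and Nell2 were not matched. None of the 12 windows held the full element, which 1.79% of all 32851 promoters in the table hold. The shortened element stood in 2 of the 12 windows, of Alcam and Cntn1, beside 20.8% of all promoters, and the AP-1 element in 1, beside 7.81%. A match describes letters and is not a site, and a window without one says nothing about the factor. The windows differed in base composition, with GC contents of 75.7% for Ncam2, 69.7% for Alcam, 50% for Lrrc4c, and 44.7% and 54.3% for the starts of Olfm3, where the median of all promoters was 52.7%.

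Relatives of these genes were set beside them in 5 lists with 107 genes in all, of which 102 were measured. On the array labelled tumor, 16 of the 102 (15.7%) were brighter and 12 (11.8%) dimmer than on control, with a median log2 difference of -0.06, against -0.004 for all genes. On high doxycycline 6 (5.88%) were brighter and 10 (9.80%) dimmer than on control, and between tumor and high doxycycline 8 (7.84%) were brighter and 5 (4.90%) dimmer on tumor. Of all genes, 11.3% were brighter and 6.82% dimmer on tumor than on control, and 10.6% and 5.56% on high doxycycline than on control. Between tumor and high doxycycline 0.913% of all genes were brighter and 1.15% dimmer on tumor, smaller shares than in the lists. The medians of the last 2 comparisons were 0.00, and so were the medians over all genes. Genes with identical deposited values on both arrays of a pair enter these medians, so they are not read as a lack of change. As with L1cam, some calls against control lay inside the 90th percentile of probe set disagreement, 1.44 for tumor and 1.37 for high doxycycline. For tumor against control these include Nptn (1.24), Adam17 (1.11), Lrrtm3 (1.19), Lrrtm4 (1.19), Adgrl3 (1.245), Olfml1 (-1.16) and St8sia2 (-1.33).

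Other adhesion genes of the immunoglobulin superfamily mostly did not follow Ncam2 and Alcam. Of 24 measured, 1 was brighter on tumor than on control, Nptn (neuroplastin, 8957 against 3799.6), and 4 were dimmer. These are 4.17% and 16.7% of the list, beside 11.3% and 6.82% of all genes. The dimmer genes were Sdk2, a sidekick protein of retinal synapses (457 against 3418), Kirrel (251 against 1029), Mcam, an adhesion receptor of vessels and melanoma cells (570 against 1881), and Nfasc, the neurofascin of axon initial segments (147 against 415). On high doxycycline, Nptn (7692) was again brighter than on control and Kirrel (205), Sdk2 (1103) and Nfasc (171) dimmer. The shares were 4.17% brighter and 12.5% dimmer, beside 10.6% and 5.56% of all genes. Sdk2 and Mcam (1236 on high doxycycline) were also dimmer on tumor than on high doxycycline. They are 8.33% of the list, beside 1.15% of all genes. The other contactins measured, Cntn2 to Cntn6, differed by less than 2-fold in all 3 comparisons, and Cntn4, Cntn5 and Cntn6 had identical values on all 3 arrays.

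Among synaptic and leucine-rich repeat adhesion genes, 7 of 28 (25%) were brighter on tumor than on control, beside 11.3% of all genes, and none was dimmer, beside 6.82%. The median log2 difference of the list was 0.00. Slitrk1, a Slitrk protein that controls neurite growth, had 1894 on tumor, 759 on high doxycycline and 205 on control, and was 9.19-fold brighter on tumor than on control. Its relatives Slitrk2 (691 on tumor, 302 on high doxycycline and 123 on control) and Slitrk6 (181, 67.7 and 34.1) were 5.58-fold and 5.20-fold brighter on tumor than on control. Slitrk6 lay below the array median on all 3 arrays, so its folds rest on dim values. Slitrk2 has a further probe set that was dim on all 3 arrays (74.6, 68.6 and 66.8). The Nogo receptor partner Lingo1 (1297, 395 and 320), Lrrc4, a netrin-G ligand like Lrrc4c (469, 167 and 160), Lrrtm3 (382, 193 and 167) and Lrrtm4 (223, 124 and 97.2) made up the rest.

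On high doxycycline against control 3 of these 28 genes were brighter, Slitrk1, Slitrk2 and Flrt3 (1324 against 635), and 1 dimmer, Flrt2 (163 against 385). These are 10.7% and 3.57%, beside 10.6% and 5.56% of all genes. Between tumor and high doxycycline 5 were brighter on tumor, Lingo1, Lrrc4, Slitrk6, Slitrk1 and Slitrk2, and 1 dimmer, Lrrtm2 (312 against 631). These are 17.9% and 3.57%, beside 0.913% and 1.15% of all genes. The neuroligins Nlgn1, Nlgn2 and Nlgn3 and the neurexins Nrxn2 and Nrxn3 differed by less than 2-fold in all 3 comparisons, as did Lrrc4b, another netrin-G ligand.

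Of 11 measured olfactomedin family genes, a list that includes the latrophilin genes, 3 (27.3%) were brighter on tumor than on control, beside 11.3% of all genes. Olfm1, the neuronal relative of Olfm3, had 3704 on tumor, 3903 on high doxycycline and 882 on control, with little between tumor and high doxycycline. Olfm2 had 1162, 647 and 375, and the latrophilin gene Adgrl3 had 295, 199.9 and 124. Adgrl2 was not called on its probe set used here (3146, 2701 and 4181). Another of its 8 probe sets (337, 208 and 85.7) was past 2-fold against control on both arrays, and the rest were not. Olfml2b, a matrix-bound member of the family (474, 1247 and 2788), was dimmer on both arrays than on control and dimmer on tumor than on high doxycycline. Olfml1 (73.3, 89.98 and 165) was dimmer on tumor than on control, and lay below the array median on all 3 arrays. In all, 18.2% of the list were dimmer on tumor than on control, beside 6.82% of all genes. On high doxycycline against control 9.09% were brighter and 9.09% dimmer, beside 10.6% and 5.56% of all genes. Between tumor and high doxycycline 9.09% were dimmer on tumor, beside 1.15% of all genes, and none was brighter.

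Genes for binding partners were called in both directions. Of 28 measured, 4 (14.3%) were brighter and 4 (14.3%) dimmer on tumor than on control, beside 11.3% and 6.82% of all genes. The brighter ones were Cntnap1, the partner of Cntn1 at paranodes, which had 1454 on tumor, 664 on high doxycycline and 392 on control, the guidance receptor gene Robo2 (447, 199 and 166), the ephrin receptor gene Epha3 (395, 172 and 155) and Cntnap2 (413, 242 and 185). The dimmer ones were the fibroblast growth factor receptor genes Fgfr1 (2703, 4047 and 5854) and Fgfr2 (761, 761 and 1727), which bind Ncam1 and L1cam proteins, and the receptor phosphatase genes Ptprf (642, 798 and 1684) and Ptprd (86.5, 91.8 and 214). On high doxycycline none of the 28 was brighter than on control and 4 were dimmer, Notch1 (406 against 923), Ptprd, Fgfr2 and Ptprf. All 4 lay inside the 90th percentile of 1.37 for that comparison. The dimmer share was 14.3%, beside 5.56% of all genes, and 10.6% of all genes were brighter.

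Between tumor and high doxycycline 3 partner genes were brighter on tumor, Epha3, Robo2 and Cntnap1, and none was dimmer. The brighter share was 10.7%, beside 0.913% of all genes, and 1.15% of all genes were dimmer. Some partner genes lay below the array median on all 3 arrays. Ntng1, the axonal partner of Lrrc4c, had 193, 195 and 225 on its brighter probe set and 211, 151 and 123 on the other. Robo3, a receptor of Nell2, had 104, 104 and 127, Ros1, another, had 67.9, 74.9 and 74.9, and Cd6, the T cell partner of Alcam, had 159, 159.9 and 159.9.

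Among 11 enzymes that modify or cut adhesion molecules, the sheddase gene Adam17 was brighter on tumor than on control (1060.5 against 491) and Psen2, a subunit of gamma-secretase (631 against 1911), and St8sia2 (608 against 1529.5), which adds polysialic acid to Ncam1, were dimmer. The shares were 9.09% brighter and 18.2% dimmer, beside 11.3% and 6.82% of all genes. St8sia2 was also dimmer on tumor than on high doxycycline (1311), which is 9.09% of the list beside 1.15% of all genes. On high doxycycline Adam17 (1014) was brighter and Psen2 (799) dimmer than on control. Each is 9.09% of the list, beside 10.6% and 5.56% of all genes.

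**Figure D3:**
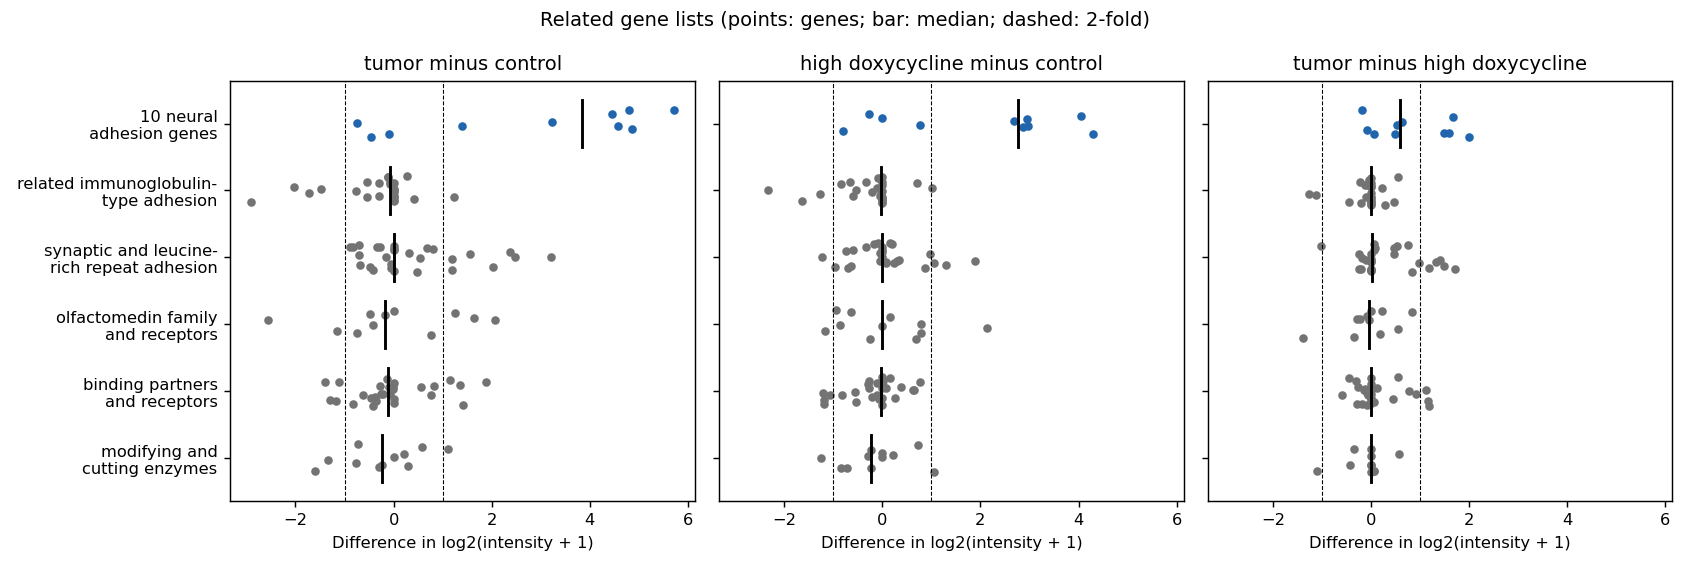
Differences in log2(intensity + 1) of the 10 genes (blue) and of the 5 lists of related genes (grey), 1 point per gene with its vertical place within a row arbitrary, black bars at the medians and dashed lines at 2-fold. The medians of the 10 genes are 3.84, 2.78 and 0.59 from left to right, and those of the lists lie between -0.23 and 0.03.

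Markers of neurons were in part brighter beside the adhesion genes. Of 15 neuronal markers, 6 were brighter on the array labelled tumor and 5 on high doxycycline than on control (40.0% and 33.3%, beside 11.3% and 10.6% of all genes). None was dimmer, beside 6.82% and 5.56% of all genes. The median log2 difference of the list was 0.04 on tumor and 0.29 on high doxycycline against control. Their summed intensity was 31486 on tumor, 29696 on high doxycycline and 16199 on control. The neurofilament relative Ina had 4744, 4942 and 544 on its brighter probe set and 3954, 4239 and 1134 on the other. The dendritic Map2 had 2318, 1764 and 391, and the SNARE protein gene Snap25 had 7476, 5542 and 1421. Other bright neuronal markers did not differ by 2-fold, among them the synaptic vesicle gene Syp (6294, 6591 and 7158) and the tubulin gene Tubb3 (1163, 1641 and 1239.7). Gap43 had an identical deposited value on all 3 arrays (1021), which may come from the processing and is not read as a lack of change. Rbfox3, the NeuN antigen of mature neurons, Nefm, Elavl4 and Dcx lay below the array median on all 3 arrays.

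Of 10 glial and Schwann cell markers 1 was brighter on tumor than on control, Ngfr, the low-affinity neurotrophin receptor (4449.6 on tumor, 957 on high doxycycline and 669 on control), and none was on high doxycycline. The share on tumor was 10%, beside 11.3% of all genes, and on high doxycycline 10.6% of all genes were brighter. None of 8 pigment cell markers differed by 2-fold in any comparison. The part of these cell types in the values of the adhesion genes was not tested.

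**Figure D4:**
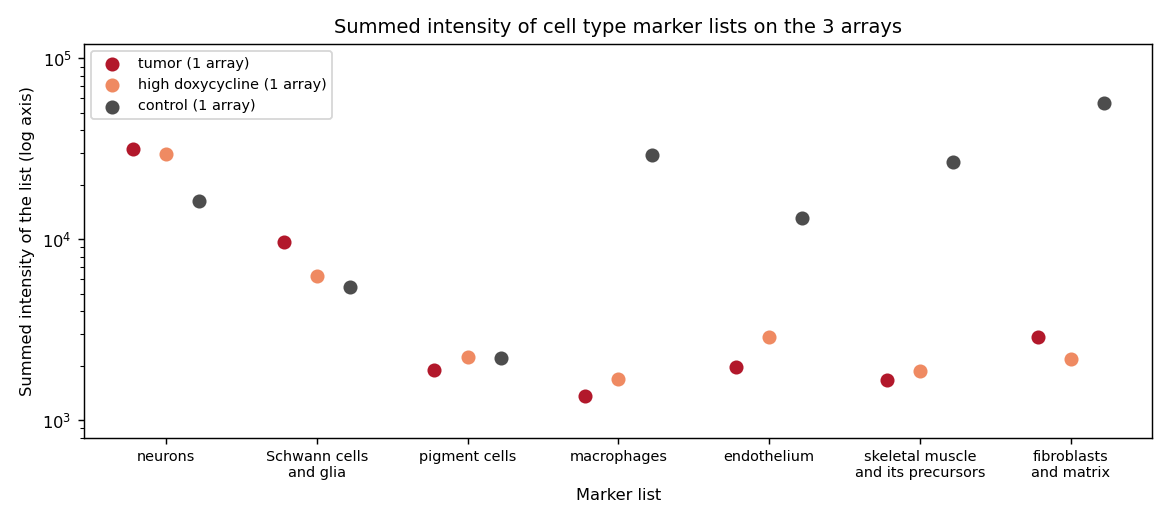
Summed intensity (log axis) of each cell type marker list, 1 point per array, with the arrays labelled tumor, high doxycycline and control from left to right. Neuronal sums are highest on tumor (31486) and lowest on control (16199), and the macrophage, endothelial, muscle and matrix sums are highest on control.

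Most genes next to the adhesion genes on their chromosomes were not called. Of 40 protein-coding neighbours, 2 on each side of each gene in the RefSeq order of GRCm38.p6, 5 (12.5%) were brighter and 2 dimmer on tumor than on control, 6 (15.0%) were brighter and 1 dimmer on high doxycycline than on control, and none was brighter and 1 dimmer on tumor than on high doxycycline. Over all genes the shares brighter were 11.3%, 10.6% and 0.913% in the same comparisons, and the shares dimmer were 6.82%, 5.56% and 1.15%. Ncam2 and Alcam both lie on chromosome 16 and Nell2 and Cntn1 both on chromosome 15, but the next genes differed from them. Beside Ncam2, Mrpl39 (2813, 2813 and 1146) was brighter than on control on both arrays, and Tmprss15 had 50.6 on all 3. Beside Alcam, Nfkbiz (305, 454 and 883) was dimmer on tumor than on control, and Cblb had 2721, 2043 and 2126.

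The other neighbours called in a comparison with control were Pts next to Ncam1 (1030.2, 1074 and 348), Rnpc3 near Olfm3 (517, 401 and 167), Ano6 near Nell2 (3379 on tumor against 1482 on control), Tmem117 near Nell2 (1302 on high doxycycline against 635 on control) and Api5 near Lrrc4c (2294 on high doxycycline against 985 on control). Near Nrcam, itself not called, Dnajb9 (2674, 2146 and 279) was brighter and Nova1 (61.6, 68.4 and 231 on its brighter probe set) dimmer than on control. Slc6a5, near Nell1, was the neighbour dimmer on tumor (712) than on high doxycycline (1607).

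Outside the 10 genes, the 3 closest profiles were taken for each of the 5 genes that lead the increases. Over the 3 arrays, the nearest gene to Alcam was Pln, which encodes the calcium pump regulator phospholamban (1534 on tumor, 448 on high doxycycline and 74.2 on control), at a distance of 0.28, followed by the semaphorin gene Sema3c (3360, 1489 and 194) at 0.36 and Fstl5 (1337, 649.5 and 80.8) at 0.45. The same 3 genes were nearest to Olfm3, with Sema3c first at 0.27, Pln at 0.28 and Fstl5 at 0.36. For Lrrc4c they were Pln at 0.36, Sema3c at 0.65 and the cadherin gene Cdh18 (1847, 585 and 126) at 0.72, whose other probe set had 974, 335 and 135.

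For Nell2 the nearest were Scoc at 0.33, the protocadherin gene Pcdhb9 (1775, 1885 and 73.1) at 0.41 and Fam171b (4651, 2893 and 231) at 0.48. Scoc had 2711, 2651 and 107 on its brighter probe set, and 325, 328 and 347 on the other, so that its place rests on the brighter probe set. For Ncam2 the nearest named gene outside the 10 was farther away, Fam171b at 1.01, while Nell2 lay 0.88 and Lrrc4c 0.86 from it. With 3 arrays a short distance shows only that the differences are alike in size.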

How the data were processed

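Total RNA of 3 samples was labelled with biotin and measured on Affymetrix arrays of type MoGene-1_0-st-v1, per the labels. The authors deposited 1 table of linear intensities with 1 value per probe set; their background correction, summarisation and normalization are not given in the sources used here. Arrays were grouped by title. Of 28856 probe sets, 21789 have 1 gene symbol in the platform annotation, 1621 several and 5446 none; the last 2 kinds were left out. This gave 19938 genes, and 999 of them had several probe sets, of which the brightest on average over all arrays was taken.

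Differences were computed from log2(intensity + 1) with Python 3.11.15, pandas 2.3.3 and numpy 2.4.6, with no filter on dim genes, and were checked on simulated data. A gene counts as called at 2-fold or more; with 1 array per group there is no test. All 10 adhesion genes are named. From the lists of relatives, genes past 2-fold are named, up to 6 per direction; neuronal and glial markers by size of difference between the arrays labelled tumor and control; neighbours past 2-fold; and the 3 nearest profiles of Ncam2, Nell2, Lrrc4c, Alcam and Olfm3. Genes named beyond this, such as dim partners, were picked with their values in view. The adhesion genes and lists were chosen with earlier results of these data known. Proteins were not compared, since no protein sequences were used here.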

Additional observations from a re-analysis of the deposited data

How the results depend on the processing

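The alternatives were a shift to a common median, quantile normalization, filters on dim genes, the mean over a gene's probe sets, and pseudocounts of 16 and 64. The shift moved all differences by 0.19 for tumor against control, by 0.14 for high doxycycline against control and by 0.044 between tumor and high doxycycline. Only the shift, quantile normalization and the pseudocounts could move the difference of an adhesion gene. Each of these genes has 1 probe set, so the mean over probe sets leaves it as it was, and the filters only leave genes out. Under the alternatives that could move them, no adhesion gene crossed the 2-fold limit in any comparison. The log2 difference of Ncam2 between tumor and control ranged from 4.65 to 5.90, that of L1cam from 1.23 to 1.58, and that of Nell1 from -0.09 to 0.10, so that Nell1 has no direction. The filters acted by leaving out genes, and kept a gene through its value on the brighter array of the pair. Only Alcam and L1cam lay above the control median, so the other genes kept against control passed through the other array alone. Counts of called adhesion genes after these filters are therefore not read as support. With the brighter array above its median, 7 of the 10 genes were left, and the shares of all genes brighter were 18.6% for tumor against control, 17.5% for high doxycycline against control and 1.597% between tumor and high doxycycline; the shares dimmer were 10.2% for tumor against control, 8.46% for high doxycycline against control and 1.94% between tumor and high doxycycline. With the brighter array above percentile 75, 3 genes were left for high doxycycline against control, each kept through its value on high doxycycline, so that their count of 3 brighter follows from the filter, and the shares brighter were 24.0%, 22.9% and 1.77% and dimmer 10.4%, 8.77% and 2.46%, in the order tumor against control, high doxycycline against control, tumor against high doxycycline. No paired analysis was possible because each group has 1 array.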

Other observations

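Beside Ncam2, Lrrc4c, Alcam and Olfm3, the 44 genes called brighter in all 3 comparisons held the genes named here, which were chosen after their values were seen. Cdh10, a type II cadherin gene, had intensities of 1015 on the array labelled tumor, 241 on high doxycycline and 77.0 on control. Cdh9, of the same group, had 537, 191 and 57.6, and Cdh18 lay in the set as well. The calcium channel subunit gene Cacna2d1 had 4488, 1753 and 320.03, and the neuromedin B receptor gene Nmbr had 2109, 533 and 153. Etv1, an ETS factor gene, had 1566, 729.7 and 293. The interferon-inducible Samd9l (690, 319.6 and 94.3) and the cyclin-dependent kinase inhibitor gene Cdkn2c (2456, 1116 and 402) were in the set too.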
